A study of Drosophila melanogaster with 25 samples.

Results

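The 45 genes described here encode homeodomain transcription factors outside the LIM class: TALE cofactors, Cut and ONECUT proteins, Prospero, POU, Pax6, sine oculis-type and paired-like factors, NK and related factors, Hox proteins and the Iroquois genes. They were taken by name, from classes of the homeobox gene family, and all 45 were among the 17087 genes of the count table. The study profiled adult fly brain neurons that were labeled with EGFP and sorted by fluorescence. In the combined line, TH-GAL4 and Clk856-GAL4 together labeled dopaminergic neurons (DANs) and clock neurons, which were profiled by 10X Chromium at ZT14 (1 library) and at ZT02 (1 library). In the other line TH-GAL4 labeled DANs alone, which were profiled with the plate-based CEL-seq2 method in 4 libraries each from ZT02, ZT06, ZT14, ZT18 and ZT22 and in 3 from ZT10. ZT is the time in hours after lights on. All flies were kept in light-dark cycles, no group carried a mutation beyond the driver and the reporter, and males and females were pooled in equal parts. Per the study's methods, the saline in which the brains were dissected held inhibitors of neuronal activity, tetrodotoxin among them. The age of the flies was not given in the sources used here. Both drivers label only part of their population: TH-GAL4 misses most of the PAM group of DANs, and Clk856-GAL4 reaches few of the DN3 clock neurons. Nothing in the labels says that libraries of 1 time point came from separate groups of flies. The p-values of the CEL-seq2 time-of-day test thus measure the spread between libraries, which may be technical. The 10X tests had 1 library per time, so their p-values rest on how far group differences varied between the ZT14 and ZT02 libraries. Time and library cannot be told apart there. The CEL-seq2 DAN groups were summed per time point, so their p-values rest on variation between time points.

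A homeodomain is a DNA-binding fold that recognises short AT-rich sites, and its carriers often act in combinations. In the fly they pattern the embryo along its axes, and in neurons they help to choose and then keep a neuron's identity, including its transmitter, its receptors and its wiring. Many homeodomain genes stay on in adult neurons, where different combinations mark different neuron types.

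The table held 5184 cells of the 10X libraries and 1516 cells of the CEL-seq2 libraries, with a median of 7156 unique molecular identifiers (UMIs) per cell for 10X and 9760 for CEL-seq2. Clock cells were 10X cells with at least 3 UMIs of tim, vri, Clk and cry together and at most 1 UMI of Vmat, and DANs were cells with at least 5 UMIs of Vmat and at least 1 of DAT. These rules gave 1026 clock cells and 2196 DANs in the 10X libraries, with median depths of 9005 and 7091 UMIs, and 1155 DANs in CEL-seq2. The other 1962 cells of the 10X libraries were in neither class. Levels are given as TP10K, which is the gene's UMIs divided by all UMIs of the summed cells, times 10000. Markers outside the class rules were compared. ple, the tyrosine hydroxylase gene, was at 0.711 TP10K (ZT14) and 0.503 TP10K (ZT02) in clock cells against 61.6 and 59.1 TP10K in DANs, and the neuronal gene nSyb was between 21 and 37.3 TP10K in both classes. Of the clock genes, per was higher in DANs, at 6.69 TP10K (ZT14) and 5.48 TP10K (ZT02) in clock cells against 9.3 and 13.3 TP10K in 10X DANs and 0.233 TP10K in CEL-seq2 DANs, and its part in the results was not tested. Pdp1 was at 155 and 38.1 TP10K in clock cells against 14.1 and 10.2 TP10K in 10X DANs. Glial repo was at or near 0 throughout, but Gs2 and Eaat1 were between 0.343 and 1.33 TP10K in clock cells, against 0.0062 to 0.0634 TP10K in 10X DANs. These transcripts sat in 91 clock cells with at least 5 UMIs of Gs2, Eaat1 and nrv2 together (67 at ZT14 and 24 at ZT02), in which nSyb was low or at 0 and which held 13% of the clock cells at ZT14 and 4.72% at ZT02. Values of the homeodomain genes that rest on those cells are given with and without them. The haemocyte gene Hml was also higher in clock cells (0.825 and 1.4 TP10K at ZT14 and ZT02) than in DANs (0.11 and 0.00322 TP10K). Its part in the results was not tested.

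Clock cells and DANs were set against each other within each library, and then each class was divided by transcripts that are not homeodomain genes. Clock cells were divided by peptide transcripts into Pdf, Trissin, ITP, NPF, CCHa1, CNMa with AstC (CNMa AstC cells), CNMa without AstC (CNMa cells), AstA with AstC (AstA AstC cells), AstC, VGlut and unmarked cells. A subtype needed at least 5 cells in both libraries, so 29 clock cells with AstA and without AstC (3 at ZT14 and 26 at ZT02) are in none of these 11 subtypes. DANs were divided by the first of Ms, AstCC, Dh31, VGlut, Nos, DIP-beta, Fer2 and AstC that passed a minimum, with the rest called DANs with no marker. UMIs were summed over the cells of a group in a library and tested across all genes with edgeR's quasi-likelihood F test and Benjamini-Hochberg adjustment. A gene passed at an adjusted p under 0.05 and, for a comparison of 2 groups, a fold of at least 1.5. Between clock cells and DANs 35 of the 45 genes had enough counts to be tested and 20 passed, 6 higher and 14 lower in clock cells. Over all genes tested, 17.1% passed in this comparison, 10.7% higher and 6.42% lower in clock cells. The median log2 difference of the homeodomain genes tested was -1.28, against 0.01 over all genes tested. Among clock subtypes 19 genes were tested and 17 passed (33.4% of all genes tested), and among DAN groups of the 10X libraries 28 were tested and 26 passed (25.9% of all genes tested). With DESeq2 the counts were 18 of 36 between the classes (14% of all genes tested), 7 of 20 among clock subtypes (28.8% of all genes tested) and 20 of 30 among DAN groups of the 10X libraries (16.4% of all genes tested). The clock subtype calls that were lost with DESeq2 were those of Dll, Dr, Gsc, Optix, mirr, nub, oc, pdm2, slou, so, unc-4 and vvl, and those of hth, pros, toy, ct and pdm3 stood. In the CEL-seq2 DANs 22 were tested among the groups and 15 passed (14.2% of all genes tested). A gene was tested only where enough sums had counts, so these counts leave out genes that are low everywhere. They describe the genes tested, not all 45. Counts in 1 group alone could be enough, as for unc-4, seen almost only in AstA AstC clock cells. Such genes entered the group tests through the group where they are high, so the number that passed is not support for a difference. With no filter on low counts 20 of 37 passed among clock subtypes (23.9% of all genes tested). Among DAN groups of the 10X libraries 30 of 41 passed without it (19.5% of all genes tested).

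A total of 19 genes reached 1 TP10K in at least 1 clock subtype or DAN group in both 10X libraries. All 19 did so in a DAN group, and 8 did so in a clock subtype. The map of these 19 genes shows 3 of them (exd, hth and onecut) in every column, pros at high levels in some columns and low ones in others, and the remaining genes in part of the columns only.

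**Figure D1:**
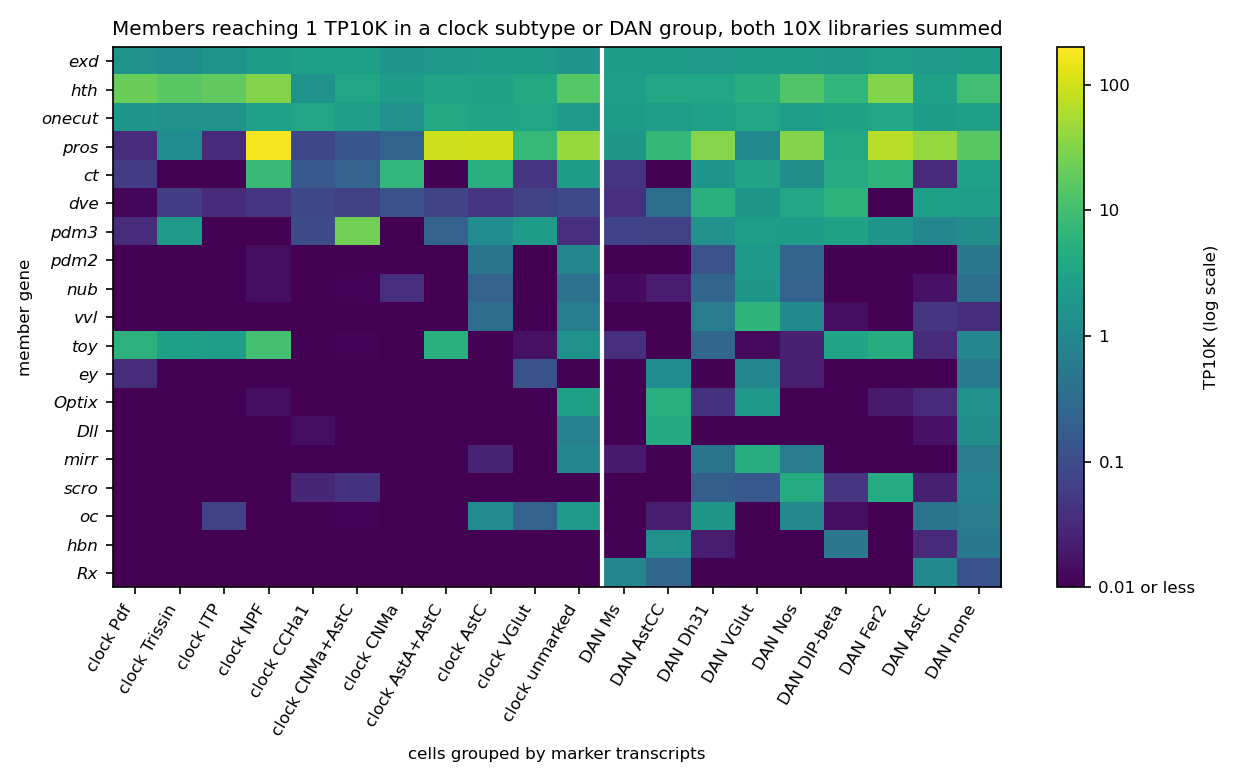
TP10K (color, log scale) of the 19 homeodomain genes that reached 1 TP10K in a group of cells in both 10X libraries, with genes as rows and clock subtypes (left of the white line) and DAN groups (right) as columns, both libraries summed. exd, hth and onecut fill all columns, hbn and Rx are dark in all clock subtypes, and pdm3 is brightest in CNMa AstC clock cells.

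The TALE cofactors were present in both classes at like levels. exd encodes the PBC-type partner that raises the DNA specificity of Hox proteins. It was at 2.19 TP10K (ZT14) and 1.9 TP10K (ZT02) in clock cells, against 2.33 and 2.13 TP10K in DANs. The log2 difference was -0.03 ± 0.09 (SE, edgeR adjusted p = 0.813), and among the clock subtypes and DAN groups exd stayed between 1.3 and 3.08 TP10K in every group of at least 5 cells of either library. Its differences passed the edgeR test neither among clock subtypes (adjusted p = 0.108) nor among DAN groups (adjusted p = 0.752). Its partner hth, the Meis-type gene whose product carries Exd into the nucleus, was at 10.7 and 9.4 TP10K in clock cells at ZT14 and ZT02, against 9.57 and 8.6 TP10K in DANs, a log2 difference of 0.24 ± 0.09 (SE, edgeR adjusted p = 0.166).

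Within each class hth differed widely. NPF clock cells held the most, 34.3 TP10K at ZT14 and 28.2 TP10K at ZT02. Pdf cells followed with 25.4 and 19.6 TP10K, ITP cells with 19.6 and 16.7 TP10K, and Trissin cells with 15.6 and 16.1 TP10K. These 4 peptide groups were thus all above 15 TP10K in both libraries. CCHa1 cells were lowest, at 1.7 and 1.5 TP10K, and the CNMa, CNMa AstC, AstA AstC, AstC and VGlut cells lay between 1.66 and 4.68 TP10K. The unmarked clock cells were at 16.8 TP10K (ZT14) and 10.2 TP10K (ZT02), and at 8.74 TP10K over both libraries without the cells of at least 5 glial UMIs. Among DAN groups the Fer2 DANs stood out with 32.5 and 32.1 TP10K, ahead of Nos DANs with 19.3 and 9.64 TP10K. The other DAN groups lay between 2.5 and 9.76 TP10K. The adjusted p of hth in the edgeR test was 7.96e-10 among clock subtypes and 5e-11 among DAN groups. hth thus had more than 1 TP10K in all groups and a range of over 10 times between them.

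onecut, the single fly ONECUT gene, behaved like exd. It was at 3.05 TP10K (ZT14) and 2.22 TP10K (ZT02) in clock cells, against 3.12 and 2.57 TP10K in DANs (log2 difference -0.03 ± 0.09, SE, edgeR adjusted p = 0.859). Between clock subtypes it ranged between 0.65 and 4.36 TP10K and did not pass the edgeR test (adjusted p = 0.0893), though it passed with DESeq2 and with no filter on low counts. Between DAN groups it passed the edgeR test (adjusted p = 0.0276) with levels between 1.77 and 3.96 TP10K.

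The Cut protein, known for setting dendrite shape in sensory neurons, was selective. ct was at 2.35 TP10K (ZT14) and 1.77 TP10K (ZT02) in clock cells, against 2.7 and 2.27 TP10K in DANs, a difference that did not pass the edgeR test (adjusted p = 0.233). NPF clock cells had 7.93 and 8 TP10K, AstC cells 6.93 and 3.33 TP10K, and CNMa cells 3.25 and 10.2 TP10K. Trissin, ITP and AstA AstC cells had none in either library, and Pdf, CCHa1, CNMa AstC and VGlut cells stayed under 0.34 TP10K. Among DANs, Fer2 cells had 6.12 and 6.64 TP10K, DIP-beta cells 4.71 and 4.21 TP10K, and AstCC cells none. dve, a gene for an atypical homeodomain protein that acts in the gut and in photoreceptors, was nearly confined to DANs: 0.0775 and 0.05 TP10K in clock cells at ZT14 and ZT02, against 2.41 and 2.51 TP10K in DANs. The log2 difference was -5.18 ± 0.21 (SE, edgeR adjusted p = 0.0125). All clock subtypes had dve between 0 and 0.144 TP10K. DIP-beta DANs had 6.19 and 6.01 TP10K, Dh31 DANs 4.75 and 6.13 TP10K and Nos DANs 2.26 and 4.78 TP10K, while Fer2 and Ms DANs were under 0.07 TP10K.

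pros had the highest level of the 45 genes in both classes by UMIs, which were counted at the 3′ end of transcripts and so do not grow with gene length. Its product, the Prospero protein, ends self-renewal in the daughters of neural stem cells and promotes differentiation. It was at 58.6 TP10K (ZT14) and 24.7 TP10K (ZT02) in clock cells, against 25.9 and 14.3 TP10K in DANs. pros was higher in clock cells in both libraries, with a log2 difference of 1.08 ± 0.13 (SE, edgeR adjusted p = 0.0295). The class value hid an on-off pattern. NPF clock cells had 208 TP10K at ZT14 and 138 TP10K at ZT02, AstC cells 151 and 37.8 TP10K, AstA AstC cells 110 and 57 TP10K, and VGlut cells 8.48 and 6.73 TP10K. Pdf, ITP, CCHa1, CNMa and CNMa AstC cells had between 0 and 0.361 TP10K, so that these groups and the NPF cells were apart by over 2 orders of magnitude. Trissin cells were at 0.119 and 1.62 TP10K. The share of cells with a pros UMI was 98.7% in NPF cells and 3.03% in Pdf cells, although Pdf cells were deeper (median 13932 UMIs against 8588). Among DANs, Fer2 cells had 94.3 and 35.4 TP10K, Nos cells 58.5 and 14.4 TP10K, AstC cells 45.1 and 38.7 TP10K and Dh31 cells 30 and 37.7 TP10K, whereas VGlut cells had 0.643 and 1.53 TP10K. The pros test among groups gave an adjusted p of 5.77e-09 for clock subtypes and 3.3e-07 for DANs (edgeR).

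**Figure D2:**
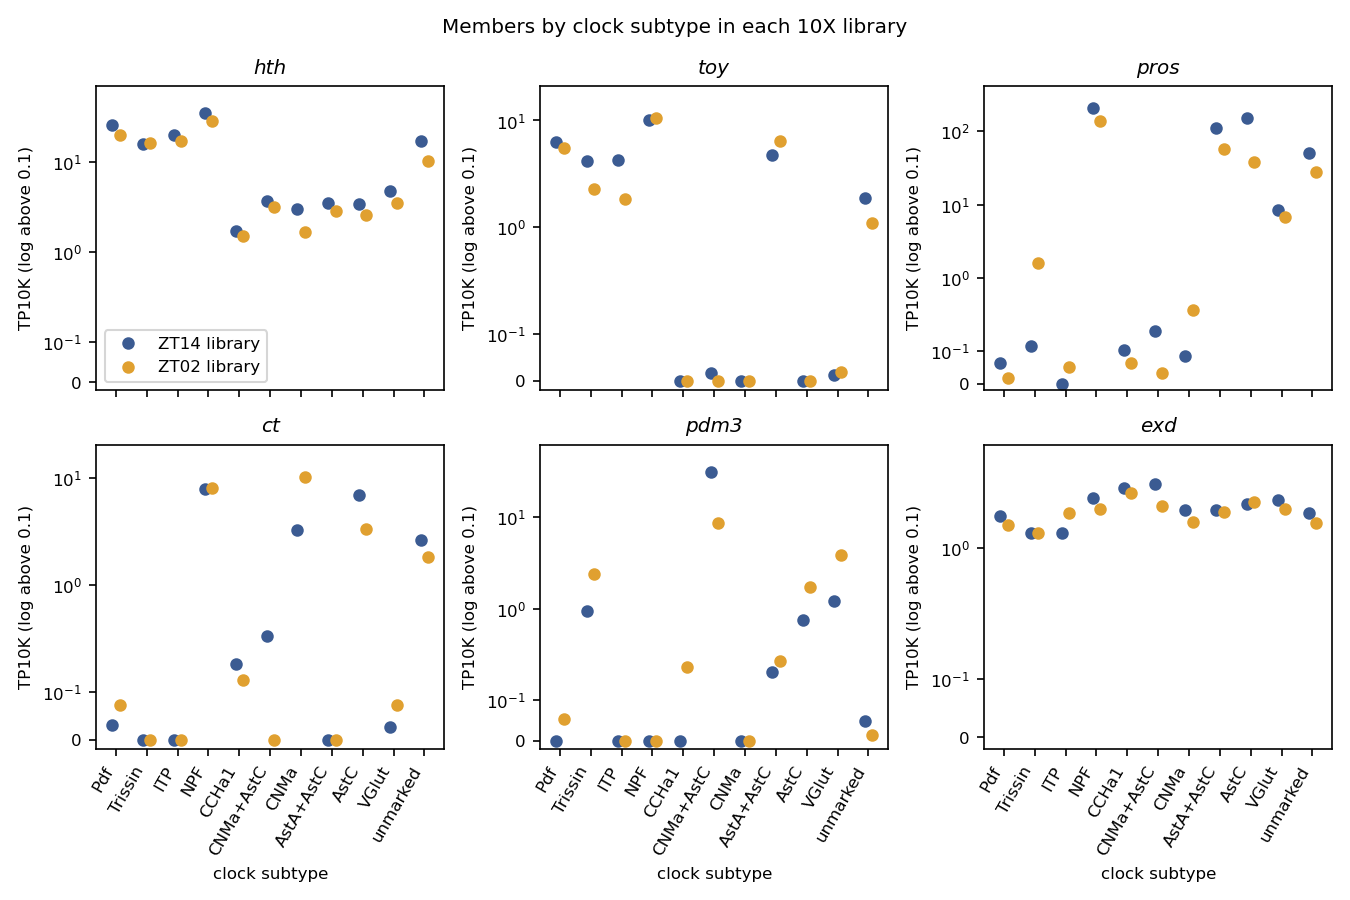
TP10K (log scale above 0.1) of hth, toy, pros, ct, pdm3 and exd in each clock subtype, with 1 point per 10X library (ZT14 left and blue, ZT02 right and orange). The highest subtype is the same in both libraries for hth, toy and pros (NPF cells) and for pdm3 (CNMa AstC cells), while exd stays between 1.3 and 3.08 TP10K.

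The POU factors divided into pdm3, which was broad, and a group of genes shared by few cells. pdm3, which guides axon targeting and receptor choice in other fly neurons, was at 3.93 TP10K (ZT14) and 1.51 TP10K (ZT02) in clock cells, against 1.53 and 1.36 TP10K in DANs, and did not pass the edgeR test between classes (log2 difference 0.85 ± 0.32, SE, adjusted p = 0.154). The highest level among clock subtypes was that of CNMa AstC cells, with 31 TP10K at ZT14 and 8.65 TP10K at ZT02. These cells held 1957 of the 2130 pdm3 UMIs of the clock class at ZT14 and 251 of 663 at ZT02, where VGlut cells held 211. VGlut cells had 1.2 and 3.87 TP10K, Trissin cells 0.95 and 2.41 TP10K and AstC cells 0.753 and 1.73 TP10K, and ITP, NPF and CNMa cells had no pdm3 UMI in either library. In DANs pdm3 was between 0.965 and 3.26 TP10K in all groups except Ms and AstCC, which were at 0.0403 to 0.0997 TP10K.

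Of the other POU genes, vvl, pdm2 and nub were lower in clock cells, and acj6 was low in both classes. vvl, a POU gene of trachea and olfactory neurons, was at 0.27 TP10K (ZT14) and 0.111 TP10K (ZT02) in clock cells, against 1.06 and 0.442 TP10K in DANs (log2 difference -1.89 ± 0.11, SE, edgeR adjusted p = 0.0194). The cells with at least 5 glial UMIs held 67.7% of the clock vvl UMIs, and without them the log2 difference was -3.28. The paralogs pdm2 and nub, which act in neuroblast timing and in the wing, lie 29 kb apart on chromosome arm 2L. pdm2 was at 0.279 and 0.248 TP10K in clock cells, against 0.453 and 0.47 TP10K in DANs (log2 difference -0.72 ± 0.12, SE, edgeR adjusted p = 0.0414), a call that was lost with DESeq2. nub was at 0.115 and 0.137 TP10K in clock cells, against 0.421 and 0.37 TP10K in DANs (log2 difference -1.57 ± 0.19, SE, edgeR adjusted p = 0.0295). All 3 were highest in the VGlut DANs. There vvl was at 10.3 TP10K (ZT14) and 3.19 TP10K (ZT02), pdm2 at 2.64 and 1.32 TP10K, and nub at 2.6 and 1.26 TP10K. In clock cells pdm2 was at 0.552 and 0.365 TP10K in AstC cells and at 0.766 and 1.29 TP10K in unmarked cells, nub at 0.238 and 0.211 TP10K and at 0.301 and 0.675 TP10K in the same cells, and both were under 0.08 TP10K in the other subtypes. acj6, the POU gene that selects olfactory receptors, stayed under 0.06 TP10K in both classes (log2 difference -0.46, edgeR adjusted p = 0.72).

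The Pax6 genes toy and ey, which start the eye program, had opposite directions between the classes. toy was at 2.03 TP10K (ZT14) and 2.2 TP10K (ZT02) in clock cells, against 0.85 and 0.934 TP10K in DANs. It was higher in clock cells by a log2 difference of 1.34 ± 0.09 (SE, edgeR adjusted p = 0.0202). NPF clock cells had 10.1 and 10.5 TP10K, Pdf cells 6.32 and 5.48 TP10K, AstA AstC cells 4.77 and 6.37 TP10K, ITP cells 4.22 and 1.81 TP10K and Trissin cells 4.16 and 2.26 TP10K. CCHa1, CNMa and AstC cells had no toy UMI in either library, and VGlut and CNMa AstC cells were under 0.02 TP10K. toy was thus in the Pdf, Trissin, ITP, NPF and AstA AstC cells and hardly in the others, apart from the unmarked cells with 1.89 and 1.08 TP10K. In DANs toy was nearly limited to Fer2 cells (3.86 and 5.42 TP10K), DIP-beta cells (3.04 and 3.41 TP10K) and DANs with no marker (0.938 and 1 TP10K). The edgeR test among groups gave toy an adjusted p of 3.07e-08 for clock subtypes and 1.21e-11 for DANs.

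ey was nearly absent from clock cells, with 0.00923 TP10K (5 UMIs) at ZT14 and 0.0341 TP10K (15 UMIs) at ZT02, against 0.318 and 0.496 TP10K in DANs (log2 difference -4.22 ± 0.35, SE, edgeR adjusted p = 0.0224). Its DANs were the AstCC cells (1.41 and 1.05 TP10K), the VGlut cells (0.602 and 1.3 TP10K) and the DANs with no marker (0.477 and 0.654 TP10K). Fer2 and DIP-beta DANs, the groups richest in toy, had between 0 and 0.024 TP10K of ey.

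Of the sine oculis-type genes, Optix was at 0.698 TP10K (ZT14) and 0.425 TP10K (ZT02) in clock cells, against 0.886 and 1.33 TP10K in DANs, which did not pass the edgeR test (log2 difference -0.89 ± 0.35, SE, adjusted p = 0.162). In the clock class it was found in the unmarked cells (2.7 and 2.94 TP10K) and was at 0 in 9 of the other subtypes. None of these UMIs lay in the cells with at least 5 glial UMIs, and the unmarked cells without them were at 4.04 TP10K. Among DANs, AstCC cells had 4.84 and 5.13 TP10K, VGlut cells 0.903 and 2.83 TP10K and DANs with no marker 1.42 and 1.78 TP10K. so, whose product works with Eya in the eye and brain, was at 0.155 and 0.152 TP10K in clock cells, against 0 and 0.00215 TP10K (2 UMIs) in DANs, and passed the edgeR test (adjusted p = 0.0243). Its clock cells were the AstC cells (0.565 and 0.239 TP10K) and the unmarked cells (0.258 and 0.691 TP10K).

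**Figure D3:**
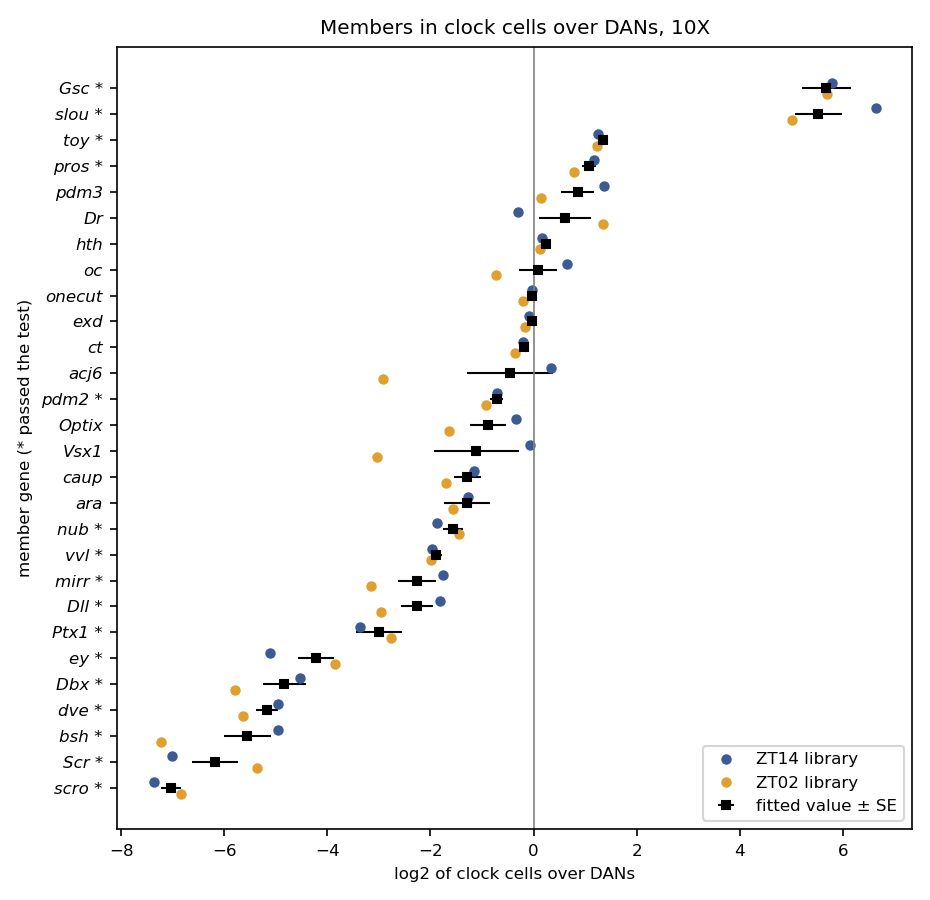
log2 of the TP10K of clock cells over that of DANs in each 10X library (blue, ZT14, and orange, ZT02) and the edgeR estimate ± SE (black squares) for the 28 homeodomain genes with UMIs in both classes in both libraries. Genes run from scro, Scr and bsh, lower in clock cells, to toy, slou and Gsc, higher in clock cells; hbn, Rx, so and unc-4 are not drawn because a class was at 0 in a library.

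Among the paired-like factors hbn, Rx and unc-4 were each seen in 1 class only, as was the Hox gene lab described later. hbn (homeobrain) had no UMI in 1026 clock cells, a share with an exact 95% interval up to 0.359%, against 0.306 TP10K (ZT14) and 0.364 TP10K (ZT02) in DANs. With a floor of 3 UMIs over both libraries, the level was at least 110-fold lower in clock cells. The call (edgeR adjusted p = 0.0224) was lost with DESeq2. Rx, a retinal homeobox gene that in the fly acts in the brain, also had no UMI in the clock cells, against 0.286 and 0.181 TP10K in DANs, at least 75.2-fold lower in clock cells (edgeR adjusted p = 0.0239). unc-4, which in nematodes and flies specifies motor and ventral cord neurons, had the opposite pattern: 0.133 and 0.05 TP10K in clock cells, against no UMI in 2196 DANs (exact 95% interval up to 0.168%). It was at least 55.5-fold higher in clock cells (edgeR adjusted p = 0.0335). All intervals and floors cover counting error only.

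A UMI of hbn was seen in 265 of the 10X DANs (203 of them with no marker), of Rx in 218, and of unc-4 in 37 clock cells. hbn was at 1.21 TP10K (ZT14) and 1.7 TP10K (ZT02) in AstCC DANs, at 0.417 and 0.601 TP10K in DIP-beta DANs and at 0.533 and 0.559 TP10K in DANs with no marker, and under 0.06 TP10K in the other DAN groups. Rx was at 1.22 and 1.01 TP10K in AstC DANs and at 1.1 and 0.776 TP10K in Ms DANs. Ms DANs held only 3 members at 1 TP10K or more in both libraries (exd, hth and onecut), with pros at 3.05 and 0.789 TP10K beside Rx. unc-4 was at 1.62 and 0.979 TP10K in AstA AstC clock cells, where 55.4% of the cells had a UMI, and 9 of the other subtypes had none. Gsc (goosecoid) was at 0.0683 and 0.111 TP10K in clock cells, against 0.00124 and 0.00215 TP10K in DANs (edgeR adjusted p = 0.0224), and reached 0.683 and 1.81 TP10K in CNMa clock cells.

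oc, the fly orthodenticle gene for head and eye, was at 0.929 TP10K (ZT14) and 0.289 TP10K (ZT02) in clock cells, against 0.59 and 0.481 TP10K in DANs, with no difference that passed the edgeR test (log2 difference 0.09 ± 0.37, SE, adjusted p = 0.876). The cells with at least 5 glial UMIs held 66.2% of the clock oc UMIs. Without them the log2 difference was -1.18 and passed the edgeR test (adjusted p = 0.0215), so the direction for oc turned with 91 of the 1026 clock cells. AstC clock cells had oc at 1.61 and 0.73 TP10K, and Dh31 and Nos DANs at 2.15 and 1.44 TP10K and at 1.11 and 0.991 TP10K. Vsx1, an optic lobe gene, stayed under 0.06 TP10K in both classes and did not pass the edgeR test (adjusted p = 0.392). The cells with at least 5 glial UMIs held 96.15% of the clock Vsx1 UMIs. Without them Vsx1 was at 0.0011 TP10K in clock cells over both libraries, and it passed the edgeR test. Ptx1, the fly Pitx gene, was at 0.00923 and 0.00682 TP10K in clock cells, against 0.0953 and 0.0462 TP10K in DANs (log2 difference -3 ± 0.44, SE, edgeR adjusted p = 0.0357, lost with DESeq2).

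Of the NK and related factors that were tested between the classes, scro, Dll, bsh and Dbx were lower in clock cells, slou was higher, and Dr, B-H1 and B-H2 did not pass. scro (scarecrow), an NK2-type gene, was at 0.00739 TP10K (4 UMIs at ZT14) and 0.00682 TP10K (3 UMIs at ZT02) in clock cells, against 1.23 and 0.78 TP10K in DANs. Its log2 difference of -7.04 ± 0.19 (SE, edgeR adjusted p = 0.0106) was the most negative of the fitted values for genes with UMIs in both classes in both libraries. scro was highest in Nos DANs (6.87 and 2.74 TP10K) and Fer2 DANs (5.11 and 3.33 TP10K). Of the 457 DANs with a scro UMI, 130 were Nos cells, 93 Fer2 cells and 219 DANs with no marker, in which the level was 0.876 and 0.718 TP10K. The unmarked clock cells and all other clock subtypes were under 0.07 TP10K. In the CEL-seq2 libraries, by contrast, the 32 Nos DANs had 0 UMIs of scro. The 12 Fer2 DANs there were highest in scro, at 1.03 TP10K (12 UMIs). Dll, the limb gene Distal-less, was at 0.181 and 0.12 TP10K in clock cells, against 0.637 and 0.941 TP10K in DANs (log2 difference -2.27 ± 0.31, SE, edgeR adjusted p = 0.0334). Its clock cells were unmarked (0.687 and 0.832 TP10K), and its DANs were the AstCC cells (4.52 and 3.79 TP10K) and those with no marker (1.08 and 1.6 TP10K).

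bsh, which specifies lamina and medulla neurons, was at 0.00923 TP10K (ZT14) and 0.00227 TP10K (ZT02) in clock cells, against 0.286 and 0.342 TP10K in DANs (log2 difference -5.55 ± 0.45, SE, edgeR adjusted p = 0.0224), with 0.715 and 1.29 TP10K in DIP-beta DANs. Dbx was at 0.00554 and 0.00227 TP10K in clock cells, against 0.129 and 0.126 TP10K in DANs (log2 difference -4.84 ± 0.42, SE, edgeR adjusted p = 0.0227), and was highest in Fer2 DANs at 0.619 and 0.743 TP10K. slou, known from muscle founder cells, went the other way: 0.124 and 0.173 TP10K in clock cells, against 0.00124 and 0.00537 TP10K in DANs (log2 difference 5.53 ± 0.45, SE, edgeR adjusted p = 0.0224). It was found in AstC clock cells (0.54 and 0.506 TP10K) and unmarked clock cells (0.172 and 0.581 TP10K). Dr, the fly Msx gene, shared the AstC clock cells (0.427 and 0.562 TP10K) and in DANs the VGlut cells (0.958 and 0.369 TP10K).

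Of the Hox genes only Scr and lab had enough counts for the test between the classes. Scr had 1 UMI in clock cells of each library (0.00185 TP10K at ZT14 and 0.00227 TP10K at ZT02), against 0.24 and 0.0934 TP10K in DANs (edgeR adjusted p = 0.0202), and was highest in VGlut DANs at 2.08 and 0.632 TP10K. lab had no UMI in clock cells and 0.0359 and 0.0548 TP10K in DANs, and missed the threshold of the edgeR test (adjusted p = 0.0523), but it passed with DESeq2 (0.0429), with no filter on low counts (0.0468), with stricter class minimums (0.0293) and without the cells of at least 5 glial UMIs (0.0264). Of the 10 members that could not be tested between the classes, pb, Dfd, Antp, Ubx, otp, vnd, en, inv, ems and al, the highest level in either class of either 10X library was that of Dfd in clock cells at ZT02, with 0.0205 TP10K. In the CEL-seq2 DANs the medians over libraries were higher for otp (0.208 TP10K) and Dfd (0.114 TP10K). The Bar genes B-H1 and B-H2 were at 0.0631 and 0.044 TP10K and at 0.0285 and 0.0333 TP10K in DANs, and neither passed (adjusted p = 0.0806 and 0.0828 with edgeR). All their clock UMIs lay in the cells with at least 5 glial UMIs, without which both genes were at 0 in clock cells and both passed the edgeR test (adjusted p = 0.0218 and 0.0382). Both also passed with stricter class minimums (0.0191 and 0.0378).

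The Iroquois genes ara, caup and mirr lie side by side on chromosome arm 3L. mirr was at 0.295 and 0.0773 TP10K in clock cells, against 0.997 and 0.692 TP10K in DANs (log2 difference -2.26 ± 0.37, SE, edgeR adjusted p = 0.0402). Of the clock mirr UMIs, 96.9% lay in the cells with at least 5 glial UMIs, and without those cells the log2 difference was -6.91. mirr was at 6.84 and 3.02 TP10K in VGlut DANs, caup at 1.57 and 0.632 TP10K and ara at 0.424 and 0.203 TP10K in the same cells. Neither caup nor ara passed the edgeR test between classes (adjusted p = 0.055 and 0.136). Both passed with stricter class minimums, and caup also passed without the cells of at least 5 glial UMIs.

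The clock cells that express CNMa were split by AstC, and their homeodomain genes differed. CNMa AstC cells numbered 61 at ZT14 and 38 at ZT02, and CNMa cells without AstC 11 and 9. pdm3 had 2208 UMIs in CNMa AstC cells (24 TP10K over both libraries) against none in CNMa cells, at least 204-fold higher in CNMa AstC cells (edgeR adjusted p = 0.00168). ct was at 0.333 TP10K (ZT14) and 0 TP10K (ZT02) in CNMa AstC cells, against 3.25 and 10.2 TP10K in CNMa cells (log2 difference -5.05 ± 0.77, SE, edgeR adjusted p = 0.00429). Gsc had no UMI in CNMa AstC cells against 33 UMIs in CNMa cells, at least 39.7-fold higher in CNMa cells (edgeR adjusted p = 0.0323), a call that was lost when the peptide minimums were doubled. These 3 genes, 1 higher and 2 lower in CNMa AstC cells, were called of the 19 tested. Over all genes tested 2.44% were called, 1.1% higher and 1.34% lower. The comparison was chosen with earlier results on pdm3 and Gsc known, so their p-values are not independent support. The split of AstA cells by AstC was not tested, because only 3 AstA cells without AstC were found at ZT14.

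Taking a gene as present in a group at 1 TP10K or more in both libraries, the 11 clock subtypes showed 9 different combinations of the 45 genes, and the 9 DAN groups showed 9. Pdf, Trissin and ITP cells shared the combination exd, hth, onecut and toy. NPF cells added pros and ct to it, AstA AstC cells added pros only, and CCHa1 cells had exd, hth and onecut alone. At 0.5 TP10K, Trissin cells also had pdm3, CNMa cells Gsc and AstA AstC cells unc-4, giving 10 combinations, and only Pdf and ITP cells were alike. The number of members per group at 1 TP10K was 3 to 7 in clock subtypes and 3 to 10 in DAN groups, with the most in VGlut DANs (ct, dve, exd, hth, mirr, nub, onecut, pdm2, pdm3 and vvl). A single clock cell showed UMIs of a median of 4 members and a single 10X DAN of 5. When each cell was thinned to 3000 UMIs these medians were 3 (86 shallower cells left out) and 4 (476 left out).

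Whether 2 members occurred in the same cells was described by the number of cells with a UMI of both, set against the number expected if the members were spread over the cells of a class independently. In 10X DANs 246 pairs had at least 10 expected cells. The median ratio of seen to expected was 0.957, with 106 pairs under 0.5 and 22 over 2. In clock cells 112 pairs had a median of 1.01, with 39 under 0.5 and 6 over 2. These ratios have no test, and cells of 1 library share their source.

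**Figure D4:**
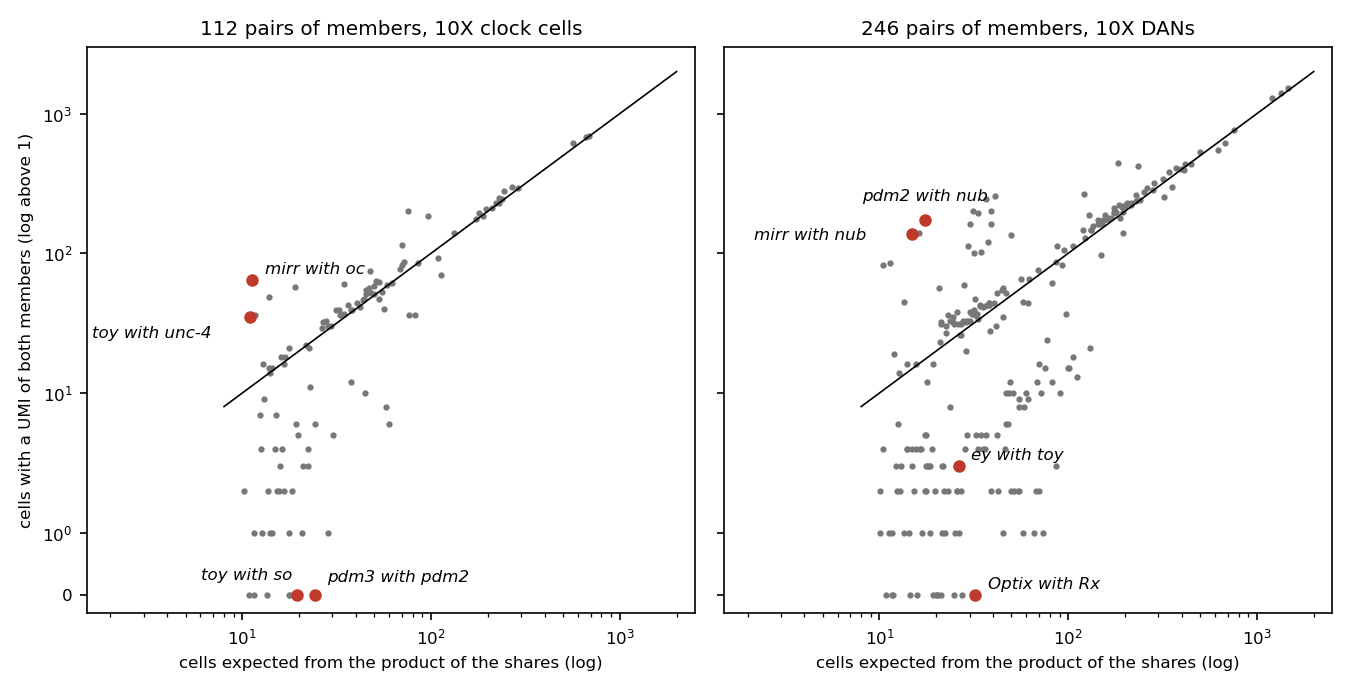
Cells with a UMI of both members of a pair (vertical axis, log scale above 1) against the number expected from the product of the shares of cells (horizontal axis, log scale), for pairs with at least 10 expected cells in 10X clock cells (left, 112 pairs) and 10X DANs (right, 246 pairs). The line marks equal numbers, and named pairs in red include ey with toy (3 seen and 26.3 expected) and pdm2 with nub (173 seen and 17.4 expected).

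Several pairs were seen together in fewer 10X DANs than expected. The Pax6 paralogs ey and toy, 269 kb apart on chromosome 4, were together in 3 cells where 26.3 were expected, a ratio of 0.114 (exact 95% interval 0.0235 to 0.333), although 249 DANs had ey and 232 had toy. After thinning to 3000 UMIs no DAN had both where 13.8 were expected. Optix and Rx shared no cell of 32.3 expected, Dll and Rx none of 27.5, and ey and Rx none of 24.7. hbn also shared no cell with mirr (21.1 expected) or with bsh (20.5 expected). Optix, Dll and hbn were highest in AstCC DANs in both libraries, ey was highest in AstCC DANs at ZT14 and in VGlut DANs at ZT02, and Rx was highest in AstC and Ms DANs.

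Other pairs went together in DANs. pdm2 and nub shared 173 cells where 17.4 were expected, 92.5% of the nub cells and 84.8% of the pdm2 cells. mirr shared 140 cells with pdm2 (16.3 expected) and 137 with nub (14.9 expected), and vvl shared 85 with pdm2 and 83 with nub. These genes reached their highest levels in VGlut DANs, but of the 204 DANs with pdm2 only 69 were VGlut cells and 118 had no marker, and of the 187 with nub 67 were VGlut cells and 102 had no marker. Among the Iroquois genes, 35 of the 38 ara cells had caup, 37 had mirr, and 45 of the 47 caup cells had mirr. B-H1 and B-H2, Bar genes 73.3 kb apart on the X chromosome, shared 25 cells where 0.597 were expected. exd and hth, both present nearly everywhere, shared 1401 cells where 1335 were expected.

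In clock cells pdm3 was never in a cell with pdm2 (24.1 expected), and toy never with so (19.6 expected) or Dr (17.8 expected). mirr was never with ct (17.8 expected), but 96.9% of the clock mirr UMIs lay in the cells with at least 5 glial UMIs, where ct was at 0. toy and unc-4 shared 35 of the 37 unc-4 cells (11 expected), which are cells of the AstA AstC kind. Dr was with pros in 57 of 60 cells and with ct in 49, as in AstC cells. pdm2 and nub shared 55 cells where 6.55 were expected. mirr and oc shared 64 cells where 11.3 were expected, and all 64 were cells with at least 5 glial UMIs.

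CEL-seq2 did not show the separation of ey and toy. In its DANs 104 cells had both where 85.9 were expected, a ratio of 1.21, and after thinning 13 cells had both where 18.1 were expected. In CEL-seq2, toy was seen in 38.2% of DANs (median depth 11327 UMIs), against 10.6% of 10X DANs (median depth 7091 UMIs). No cell type known beforehand to lack toy was at hand as a background. Between 10X clock subtypes the share of cells with toy ran between 0% and 97.3%. Over 460 pairs in CEL-seq2 the median ratio was 1.07, with 4 pairs under 0.5 and 11 over 2, so the spread of the ratios was narrower than in 10X. The pairs with the highest ratios were hbn with Optix (70 cells, 17.5 expected), hbn with Dll (70 cells, 19.1 expected), Dll with Optix (110 cells, 34.4 expected) and Optix with ey (112 cells, 37.2 expected). All 4 genes were above 1 TP10K in the AstCC DANs of both 10X libraries.

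The same DAN groups were tested in the CEL-seq2 libraries, which hold other flies and another method. Of 20 members tested with both methods, 13 passed the edgeR test in both (Dll, Optix, Rx, bsh, ct, dve, ey, hth, mirr, nub, pdm3, pros and toy). Over the 7 groups that both fits held, which leave out AstCC and Fer2 DANs, 7 of the 13 had the same highest group: Dll in DANs with no marker, dve, pdm3 and toy in DIP-beta DANs, and ey, mirr and nub in VGlut DANs. The shares of all genes that passed in both methods or had the same highest group were not counted, so these counts have no background. Taken alone, 25.9% of all genes tested passed in 10X and 14.2% in CEL-seq2. By the highest group over the mean of the others, the groups were closer together in CEL-seq2 for Dll, ey, mirr, nub and toy. They were not for pdm3 (2.04 times in 10X and 2.32 in CEL-seq2) and dve (2.25 and 3.39 times). For toy, DIP-beta DANs had 14.4 times the mean of the other groups in 10X and 1.73 times in CEL-seq2, and for mirr, VGlut DANs had 16.2 times in 10X and 2.81 times in CEL-seq2. pros passed in both methods, but the order of its groups differed. Over both 10X libraries pros was at 1.115 TP10K in VGlut DANs, below the DANs with no marker (15.98 TP10K). In CEL-seq2 pros was at 10.55 TP10K in VGlut DANs, above the DANs with no marker (7.3 TP10K). Dh31 DANs were alike, with pros at 33.13 TP10K in 10X and 34.29 TP10K in CEL-seq2. vvl, pdm2, oc, Scr, Ptx1 and onecut passed in 10X and not in CEL-seq2, although in CEL-seq2 vvl, Scr and Ptx1 passed with DESeq2, and these 3, oc and pdm2 passed with no filter on low counts. vvl and Scr also passed in CEL-seq2 with doubled marker minimums and without ZT18 or ZT22, oc with doubled minimums and without ZT22, pdm2 without ZT22 and Ptx1 with halved minimums. otp (edgeR adjusted p = 0.00352) and unc-4 (0.017) passed in CEL-seq2 and had too few counts for the test in 10X. Both calls were lost without ZT06, and that of unc-4 also with halved marker minimums. Some of the other CEL-seq2 calls were lost when 1 time point was left out. Without ZT06 9 members passed (10.9% of all genes tested), and ey (edgeR adjusted p = 0.0577), nub (0.0948), pdm3 (0.23) and toy (0.0576) did not. Without ZT02 hth (0.0605), nub (0.105) and toy (0.0711) did not pass, nub was also lost without ZT14 (0.0718), pdm3 without ZT10 (0.0865), and ct without ZT10 (0.258), ZT18 (0.125) or ZT22 (0.112). The calls of Dll, Optix, Rx, bsh, dve, mirr and pros stood without each time point. Whether the difference between methods itself is beyond error was not tested, since method, line and flies cannot be told apart.

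Levels in DANs as a whole also differed by method for 3 members. dve was at 2.41 TP10K (ZT14) and 2.51 TP10K (ZT02) in 10X DANs, against 0.129, 0.572 and 1.2 TP10K as the lowest, median and highest of the 23 CEL-seq2 libraries. scro was at 1.23 and 0.78 TP10K in 10X DANs, against 0, 0.0812 and 0.307 TP10K in CEL-seq2. The third was Optix, and the other 42 members lay within or across the CEL-seq2 range. unc-4, at 0 in the 10X DANs, had UMIs in 21 of the 23 CEL-seq2 libraries, with a median of 0.096 TP10K.

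Time of day was compared in CEL-seq2 DANs within each pair of times whose sample titles share a date-like suffix. Such a pair is called a collection here, although the labels do not say what the suffix stands for. In this test 29 members had enough counts. exd was the only member called. It was at 1.1, 1.21, 0.94 and 1.19 TP10K at ZT18, against 1.97, 1.85 and 1.56 TP10K at ZT10, and the groups did not overlap. Its log2 difference was -0.71 ± 0.18 (SE, edgeR adjusted p = 0.0156) in a comparison in which 8.03% of all genes tested were called (4.74% higher and 3.29% lower at ZT18). The call did not stand without the ZT18 library 15, the ZT10 library 17 or the ZT10 library 18, nor when the collection was fitted alone. The means ± SD of exd were 1.78 ± 0.43 TP10K at ZT02, 1.58 ± 0.08 at ZT06 and 1.8 ± 0.21 at ZT10. They were 1.76 ± 0.26 at ZT14, 1.11 ± 0.12 at ZT18 and 2.01 ± 0.33 at ZT22 (n = 4 libraries, 3 at ZT10). Only ZT14 with ZT02, ZT22 with ZT06 and ZT18 with ZT10 shared a collection. Between other times, time and collection cannot be told apart, so these means are not a course over the day.

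**Figure D5:**
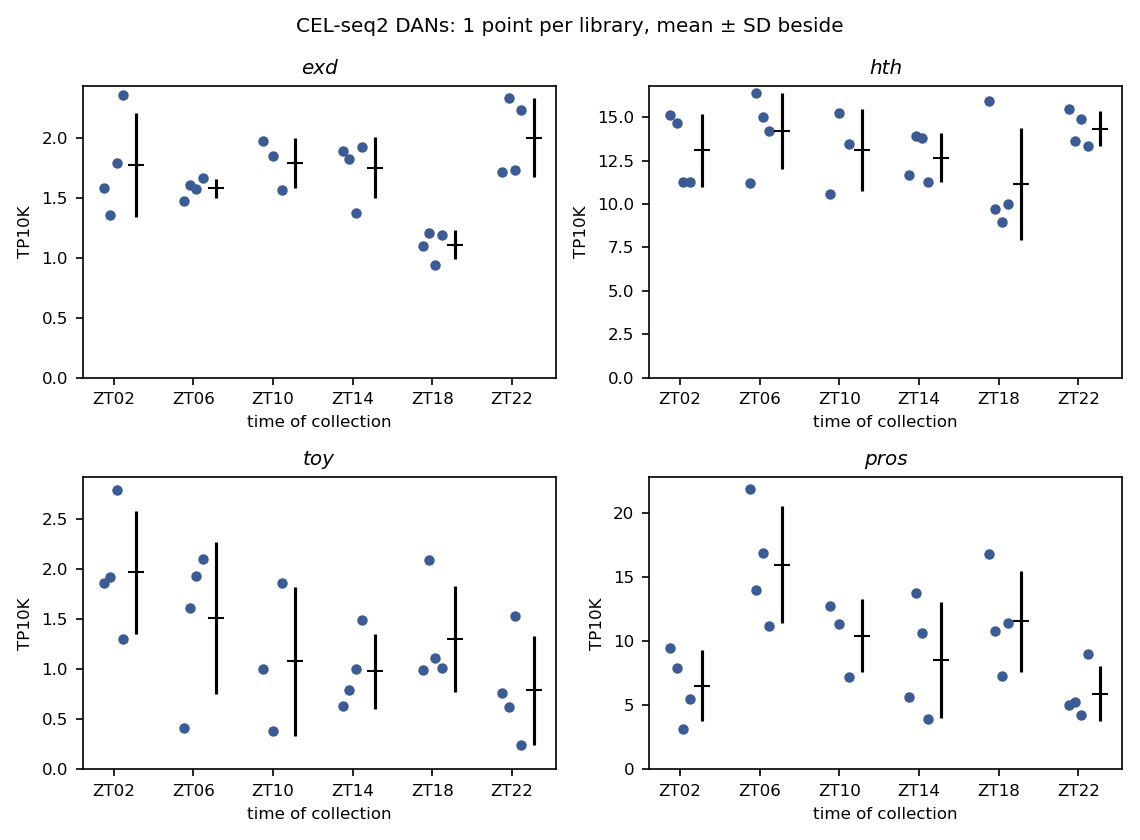
TP10K of exd, hth, toy and pros in the DANs of each CEL-seq2 library (points) by time of collection, with the mean ± SD of the libraries of that time beside them (n = 4, 3 at ZT10). The 4 ZT18 libraries of exd lie between 0.94 and 1.21 TP10K, below the 3 ZT10 libraries at 1.56 to 1.97 TP10K. Only ZT14 with ZT02, ZT22 with ZT06 and ZT18 with ZT10 shared a collection, and between other times the collection differs too.

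No member was called for ZT14 over ZT02 or for ZT22 over ZT06. In these comparisons 0.0177% and 0% of all genes tested were called with edgeR, and DESeq2 also called 0 members in both. An unadjusted edgeR p under 0.05 was found for 5 and 4 of the 29 members. Over all 5651 genes tested it was found for 397 and 339. pros was at 5.86 ± 2.14 TP10K at ZT22 against 15.9 ± 4.56 TP10K at ZT06 (SD, n = 4 libraries each), a log2 difference of -1.45 with an adjusted p of 0.259 (edgeR). Under no filter on low counts pros and Dr were called for ZT22 over ZT06, with 0.594% of all genes tested called.

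In 10X there was 1 library per time, so ZT14 and ZT02 are compared with counting intervals only. pros was higher at ZT14 in both classes, with a ratio of ZT14 over ZT02 of 2.37 in clock cells (exact 95% interval 2.32 to 2.43) and 1.82 in DANs (1.78 to 1.86). pdm3 had a ratio of 2.61 in clock cells (2.39 to 2.85) and 1.13 in DANs (1.04 to 1.22). vvl had ratios of 2.42 in clock cells (1.74 to 3.42) and 2.4 in DANs (2.13 to 2.71), but without the cells of at least 5 glial UMIs the clock ratio was 1.01 (0.597 to 1.72). toy was close to even in both, at 0.926 and 0.91. For oc the clock ratio was 3.21 (2.64 to 3.94), and 1.96 (1.46 to 2.67) without the cells of at least 5 glial UMIs. The number of cells in each subtype also differed between the libraries, for example 23 Pdf cells at ZT14 and 43 at ZT02, so that a change per cell and a change in the mix of cells cannot be told apart in the class values.

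Other homeobox genes were counted from lists that were set by family. Of 7 LIM-class genes besides the 45, 5 were tested between clock cells and DANs and all 5 passed, 2 higher and 3 lower in clock cells. Of 48 further homeobox genes found in the table, 14 were tested and 8 passed, 4 in each direction. Of the partner genes eya, dac, tsh and tio, all 4 were tested and 2 passed. None of these genes was above 10 TP10K in a class, whereas pros was, and hth was at ZT14 in clock cells.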

How the data were processed

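The deposited table held UMI counts per gene and cell, which the authors made from sorted fly brain cells with zUMIs for CEL-seq2 and with Cell Ranger 6.0.2 for 10X (bcl2fastq 2.20 and the genome build dm6 are named in the submitters' processing notes). Alignments to annotated exons alone were counted, and the counts were deposited without normalization. Per the study's methods, cells were filtered on detected genes, UMIs and entropy, and doublets of the 10X libraries were removed with Scrublet before deposit; the table held as many cell columns as the study states after these filters. No doublet caller was run here. Of the columns, 2325 matched no sample and were not used. Spike-in rows (1.426% of CEL-seq2 counts) were left out.

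Depth was 21264133 UMIs at ZT14 and 19834146 at ZT02 in 10X and 548486 to 1197517 UMIs per CEL-seq2 library, with 30 to 75 DANs each. The 10X libraries shared 0 barcodes, and 2 clock cells that passed the minimums of more than 1 peptide gene were set aside from the subtypes. The minimums in TP10K were, for clock cells, 200 for Pdf, 100 for Trissin and ITP, 30 for CCHa1 and AstA, 20 for CNMa and AstC, 10 for NPF (with ITP under its own) and 5 for VGlut, and for DANs 20 for Ms, NPF and AstC, 15 for Dh31, 10 for VGlut, 5 for AstCC and DIP-beta and 2 for Nos and Fer2. The 9 DANs of 10X with NPF were all from ZT02 and, like the 5 of CEL-seq2, formed no group in the fits. UMIs were summed per group and library (per group and time point for CEL-seq2 DAN groups) where a sum held at least 5 cells. Sums were tested with edgeR 4.0.16 (TMM, filterByExpr, quasi-likelihood F test, limma 3.58.1, R 4.3.3), with library as a term in the 10X fits and time point in that of the CEL-seq2 DAN groups, and SEs were derived from F. DESeq2 1.42.0 was an alternative. Counts were read with pandas 2.3.3 under Python 3.11.15, intervals were computed with scipy 1.17.1 and numpy 2.4.6, and plots were drawn in matplotlib 3.10.9. Intervals are exact (Clopper-Pearson or Poisson) at 95%, and the floor was 3 counts. The fits were tested on simulated data with 1 fixed spread. Changes of 2-fold were recovered for 36% of genes between the classes, 10% among clock subtypes and 23% among 10X DAN groups. The shares were 68% among CEL-seq2 DAN groups and 54% for time of day, and changes of 4-fold were recovered for 76% to 97%. A gene that did not pass may thus still differ. Alternatives were other minimums, no filter on low counts, sums of at least 15 cells, leaving out each CEL-seq2 library or time point, fitting a collection alone, thinning to 3000 UMIs, and, chosen after seeing the data, leaving out cells with at least 5 glial UMIs, unmarked cells or DANs with no marker, and asking for 2 or 3 UMIs of both genes. All 45 genes were described, those reaching 1 TP10K in a group of both 10X libraries in full, the others by their values or range. The members, gene lists and tests were chosen with earlier results of these data known. Distances between genes are from the Ensembl annotation of Release 6 (BDGP6). Parts of pdm3 and acj6 overlap other genes on their own strand, so reads there are uncertain. No sequences were used here.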

Additional observations from a re-analysis of the deposited data

Results flagged for a closer look

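In the CEL-seq2 DANs, 95 groups of 4 libraries of 1 time point were checked for a library far from the others, and 6 (6.32%) held one, where chance gives about 1 in 20. At ZT02 hbn was at 0.19 TP10K in library 1, against 0.0353 to 0.0544 TP10K in the other libraries. At ZT14 scro was at 0.281 TP10K in library 7, against 0 to 0.024 TP10K. At ZT18 toy was at 2.1 TP10K in library 14, against 0.992 to 1.11 TP10K, Rx at 0.267 TP10K in library 15, against 0.0666 to 0.0925 TP10K, hth at 15.9 TP10K in library 13, against 8.96 to 10 TP10K, and scro at 0.0887 TP10K in library 14, against 0.00841 to 0.0101 TP10K.

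The ratio of ZT14 over ZT02 in 10X went opposite ways in the classes for 3 members, with counting intervals that left out 1. Dll had a ratio of 1.5 in clock cells (exact 95% interval 1.06 to 2.14) and 0.677 in DANs (0.606 to 0.756), but without the cells of at least 5 glial UMIs, an alternative chosen after seeing the data, the clock ratio of Dll was 1.36 and its interval held 1 (0.948 to 1.96). Dr had a ratio of 0.602 in clock cells (0.396 to 0.908) and 1.9 in DANs (1.31 to 2.77), and Optix 1.64 in clock cells (1.37 to 1.97) and 0.666 in DANs (0.606 to 0.731). Without the same cells the clock ratios were 0.649 for Dr (0.427 to 0.982) and 1.74 for Optix (1.46 to 2.08). With 1 library per time the difference between the classes was not tested.

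The 10X cells of neither class, 888 at ZT14 and 1074 at ZT02 with median depths of 7787 and 4602 UMIs, held 3 members at levels above those of the 11 clock subtypes and 9 DAN groups that had at least 5 cells in both libraries. The POU gene acj6 was at 1.45 TP10K (ZT14) and 0.615 TP10K (ZT02) in them, against at most 0.524 TP10K in a subtype or group. otp, a paired-like gene, was at 0.686 and 0.503 TP10K, against at most 0.0286 TP10K, and the Hox gene Dfd was at 0.0837 and 0.109 TP10K, against at most 0.0785 TP10K. The 26 clock cells with AstA and without AstC at ZT02, which formed no subtype, were higher in Dfd (0.2 TP10K) and were at 0.15 TP10K of otp and 0 of acj6. The 361 CEL-seq2 cells outside the DAN rule had acj6 at 0.296 TP10K, otp at 0.696 TP10K and Dfd at 0.193 TP10K.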

How the results depend on the processing

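Between clock cells and DANs the count of members called was 18 to 26 under every alternative (20 as reported). Over all genes tested, 13.9% to 22.3% were called under these alternatives, against 17.1% as reported. Of the members that passed in the reported fit or an alternative, only oc turned in direction between fits. Its log2 difference was -1.18 without the cells of at least 5 glial UMIs (an alternative chosen after seeing the data) and 0.09 with them. Between the 2 libraries the log2 ratio of clock cells over DANs changed sign for oc (0.65 at ZT14 and -0.74 at ZT02), Dr (-0.30 and 1.36) and acj6 (0.34 and -2.92). None of these passed in the reported fit. Among clock subtypes 7 of 20 members were called with DESeq2 (28.8% of all genes tested) against 17 of 19 with edgeR (33.4%). Under the other alternatives 12 to 20 members and 23.9% to 33% of all genes tested were called. Among the CEL-seq2 DAN groups 30 of 45 were called with no filter on low counts (6.79% of all genes tested) against 15 (14.2%). When a time point was left out, 9 (without ZT06, 10.9% of all genes tested) to 20 (without ZT22, 11.4%) were called. For ZT22 over ZT06 no filter gave 2 calls (Dr and pros, with 0.594% of all genes tested called) against 0. For ZT18 over ZT10 the call of exd became 0 calls with no filter (3.92% of all genes tested) and with the collection fitted alone (0.998%). Leaving out a library gave 0 to 2 calls (3.58% to 14.2% of all genes tested). There were 0 without ZT18 library 15 or ZT10 library 17 or 18, and 2 without ZT02 library 2, which added Dll. Leaving out a library gave 0 to 0 calls for ZT14 over ZT02 and for ZT22 over ZT06. The ratio of seen to expected DANs with ey and toy was 0 after thinning to 3000 UMIs and 0 with at least 2 or at least 3 UMIs of both genes (chosen after seeing the data), against 0.114. In each case the cause was not tested. Over all genes, the calls were 1, 7 and 53 for ZT14 over ZT02 (edgeR, DESeq2, no filter), 0, 7 and 78 for ZT22 over ZT06, 129, 218 and 291 for CNMa AstC over CNMa cells, and 520, 777 and 888 among CEL-seq2 DAN groups. The comparison of AstA cells with and without AstC could be fitted only with halved peptide minimums and is given no value. No paired analysis was possible because the CEL-seq2 times compared within a collection share no library number and each 10X time has 1 library. Depth limits members near the floor of 3 UMIs (0.00306 TP10K in clock cells and 0.00172 TP10K in 10X DANs), and the 10X comparisons rest on 2 libraries.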

Other observations

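The 10X cells of neither class also held members that clock cells and DANs share. toy was at 1.87 TP10K (ZT14) and 1.81 TP10K (ZT02) there, with a UMI in 22.7% of the cells. mirr was at 1.28 and 1.34 TP10K and pdm3 at 0.91 and 0.785 TP10K, each below the level of its highest clock subtype or DAN group. These cells had ple at 6.49 and 5.72 TP10K, Vmat at 3.7 and 8.07 TP10K and tim at 0.272 and 0.113 TP10K, and they also carried Trh, the neuronal tryptophan hydroxylase gene of serotonin synthesis, at 1.06 and 0.908 TP10K and Tdc2, the neuronal tyrosine decarboxylase gene of octopamine synthesis, at 0.443 and 0.549 TP10K. The class rules used here put them in neither class, the labels give no population for a cell, and they entered no comparison. Whether some of them are DANs or clock cells that fell short of the minimums was not tested.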
